A study of Mus musculus with 24 samples.

Results

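The genes described here encode the nuclear-encoded subunits of respiratory complexes II, III, IV and V and of the electron carrier cytochrome c, measured in sorted nuclei of the mouse hippocampus. They are the Sdh, Uqcr, Cox (subunit families 4 to 8) and Atp5 symbols of the deposited count tables together with Cyc1 and Cycs, with symbols marked as pseudogenes left out. This gave 50 of 55254 genes, of which 4 belong to complex II, 9 to complex III, 19 to complex IV and 17 to complex V. The rule goes by symbol and uses no measured value, though it was chosen with earlier results of these data known.

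Nuclei came from male C57BL/6N mice of 6 months and were sorted by the neuronal nuclear protein NeuN into neuronal (NeuN+) and mostly glial (NeuN-) nuclei. The genotypes were WT, Mutyh-/-, Ogg1-/- and the double knockout Mutyh-/-xOgg1-/- (DKO). Ogg1 encodes the glycosylase that removes 8-oxoguanine from DNA, and Mutyh encodes the glycosylase that removes adenine paired with 8-oxoguanine. Both knockouts are constitutive, so every cell of an animal carries them. Each of the 8 groups had 3 libraries of nuclear RNA, 24 in all. Nuclei of several animals of a genotype were pooled, and the labels do not say whether the 3 libraries of a group hold separate animals, so the p-values below measure the spread between these libraries, which may be technical. The measurements are of RNA in fixed nuclei, so they show transcripts before or during export and not the subunits themselves.

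The respiratory chain passes electrons from succinate (complex II, succinate dehydrogenase) to ubiquinone, on to cytochrome c (complex III, the cytochrome bc1 complex) and then to oxygen (complex IV, cytochrome c oxidase). The proton gradient built by complexes III and IV drives ATP synthesis by complex V. Neurons depend on this pathway for ion pumping and synaptic transmission. Complex II is encoded wholly in the nucleus, whereas complexes III, IV and V combine nuclear subunits with subunits encoded in mitochondrial DNA. Transcripts of mitochondrial DNA were not analysed here. Several complex IV subunits have isoforms known from heart, skeletal muscle, testis or lung.

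Total counts ran from 56563586 to 96192142 per library. Levels are given as CPM, the count of a gene relative to the scaled total of its library. CPM scaled within a sort are not comparable between sorts for single genes, so comparisons of sorts use values scaled over all 24 libraries. The 8 neuron markers summed to 4620 to 5310 CPM in the NeuN+ libraries and to 339 to 495 CPM in the NeuN- libraries, while 5 oligodendrocyte markers summed to 107 to 128 CPM and to 4910 to 7370 CPM. The sorts thus matched their labels. The 5 choroid plexus markers ranged from 7.75 to 233 CPM among the NeuN- libraries. Mutyh RNA was higher in every library labelled Mutyh-/- or DKO than in WT of the same sort, by a log2 fold change of 3.15 in Mutyh-/- and 2.99 in DKO NeuN+ nuclei and of 1.85 and 1.61 in NeuN- nuclei. Ogg1 RNA passed no test: NeuN+ libraries held 2.54, 3.49 and 3.10 CPM in WT and 3.34, 3.16 and 2.95 CPM in Ogg1-/-. A count over a whole gene cannot show whether the deleted part is transcribed, so neither value checks the loss of the protein, and the genotypes below are those of the labels. The labels put NeuN+ and NeuN- libraries on different sequencing lanes and give no lane for a single library, so sort and lane cannot be told apart.

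Many nuclear respiratory genes are known to be controlled through promoter elements for NRF1, for ETS factors including GABP (also called NRF2), for YY1 and for the oestrogen-related receptor ERRα. RefSeq promoters (GRCm38.p6, 250 bases before to 50 bases after the start) were found by symbol for 37 of the 50 genes. The NRF1 letters CGCATGCG were present in 8 of the 37 (21.6%) against 1.87% of 32851 promoters of the same length. The ETS letters CCGGAAG were present in 13 (35.1%) against 8.86%, the YY1 letters AANATGGCG in 3 (8.11%) against 2.38% and the ERRα letters TCAAGGTCA in 2 (5.41%) against 0.423%. Either strand was searched, and 19 of the 37 (51.4%) held at least 1 of these motifs against 12.6% of all promoters. Members were counted by gene, with a match in any promoter entry of the gene, while all promoters were counted by entry. Some members, such as Atp5j, have 2 entries, so the shares are not in quite the same unit. No matches of different motifs overlapped in the promoters shown. The 4 below are shown because Cox5b and Cox8a are among the members called lower in Ogg1-/- NeuN+ nuclei, as described later. Cycs holds the NRF1 letters and Uqcr11 holds both NRF1 and ETS letters. Matched letters are in capitals and each sequence runs 5′ to 3′ along its gene.
Cox5b (chr1:36691237-36691536, plus strand): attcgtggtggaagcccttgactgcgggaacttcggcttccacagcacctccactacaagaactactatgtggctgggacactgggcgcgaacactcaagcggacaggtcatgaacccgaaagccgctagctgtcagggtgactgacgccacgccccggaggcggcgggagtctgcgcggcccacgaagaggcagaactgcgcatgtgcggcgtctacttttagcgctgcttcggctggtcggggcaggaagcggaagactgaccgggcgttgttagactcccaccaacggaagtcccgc
Cox8a (chr19:7217567-7217866, minus strand): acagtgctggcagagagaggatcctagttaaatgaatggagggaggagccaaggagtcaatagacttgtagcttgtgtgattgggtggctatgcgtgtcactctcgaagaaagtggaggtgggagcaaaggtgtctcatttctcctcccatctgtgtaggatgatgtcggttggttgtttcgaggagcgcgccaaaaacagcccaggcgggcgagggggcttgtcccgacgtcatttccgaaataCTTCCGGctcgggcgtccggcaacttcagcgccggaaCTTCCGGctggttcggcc
Cycs (chr6:50566520-50566819, minus strand): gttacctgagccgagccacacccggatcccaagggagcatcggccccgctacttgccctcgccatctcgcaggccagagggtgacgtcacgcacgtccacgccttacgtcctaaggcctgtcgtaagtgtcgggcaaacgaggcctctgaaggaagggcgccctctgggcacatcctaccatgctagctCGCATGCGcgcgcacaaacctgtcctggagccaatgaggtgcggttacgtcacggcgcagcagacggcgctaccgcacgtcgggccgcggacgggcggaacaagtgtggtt
Uqcr11 (chr10:80406772-80407071, minus strand): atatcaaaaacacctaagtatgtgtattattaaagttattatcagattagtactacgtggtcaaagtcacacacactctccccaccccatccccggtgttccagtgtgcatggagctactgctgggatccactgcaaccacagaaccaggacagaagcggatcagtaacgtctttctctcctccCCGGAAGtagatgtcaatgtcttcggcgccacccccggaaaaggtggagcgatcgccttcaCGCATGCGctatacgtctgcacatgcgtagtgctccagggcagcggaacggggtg
The Cox8a window holds the ETS letters at positions -5 and 32 from the start, and the Cycs window holds the NRF1 letters at -61. In Uqcr11 the NRF1 letters lie at -5 and the ETS letters at -66. The Cox5b window holds none of the exact letters searched, which says nothing about the factors.

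In WT NeuN+ nuclei, the median level over the 50 genes was 7.25 CPM per kb of merged exons, and in WT NeuN- nuclei it was 5.83 CPM per kb. Whether reads in introns were counted is not given in the sources used here, so in nuclear RNA these levels may also depend on intron length. Divided by length, the highest level belonged to Atp5o, the stalk subunit OSCP of ATP synthase, at 167 ± 0.833 CPM per kb (SD, n = 3), but its row covers 2 overlapping gene models and its level is uncertain. Next came Atp5c1, the rotating gamma subunit, at 33.4 ± 0.666 CPM per kb, Atp5a1, the catalytic-core alpha subunit, at 23.0 ± 1.30 CPM per kb, and Cox8a at 20.0 ± 1.47 CPM per kb. Atp5c1, Atp5a1, Cox8a and Atp5h (16.6 ± 0.958) were each separated from the next by more than their SDs. From Sdha (14.7 ± 0.482) down to Uqcrh (10.6 ± 0.148) neighbouring genes did not differ beyond their spread. The median was 8.87 CPM per kb over the 4 genes of complex II, 7.72 over the 9 of complex III, 6.03 over the 19 of complex IV and 7.36 over the 17 of complex V. Complex IV had the lowest median, and its list holds the tissue isoforms described next.

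These isoforms were the lowest members. Cox8c, known from testis, and Cox6c2 had 0 to 2 counts in every library and were not tested. Cox6b2, also known from testis, had 1 to 8 counts per NeuN+ library and 54 to 93 counts per NeuN- library, and it was tested only where NeuN- libraries entered. The muscle and heart isoforms Cox6a2, Cox7a1 and Cox8b and the lung isoform Cox4i2 passed the low-count filter at 0.264, 1.14, 0.769 and 0.324 CPM per kb in WT NeuN+ nuclei. So 47 of the 50 genes were tested in NeuN+ libraries and 48 in NeuN- libraries and in the fit of all 24.

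Within an isoform pair, the ubiquitous gene held most of the level per kb. In WT NeuN+ nuclei Cox4i1 made up 97.2% ± 0.256 (SD, n = 3) of the Cox4 pair, and in NeuN- nuclei 89.4% ± 0.783. Cox6a2 held 2.62% of its pair in NeuN+ and 8.0% ± 1.72 in NeuN- nuclei, and Cox6b2 held 0.398% and 5.38%. The share of Cox7a1 against Cox7a2 was 17.0% ± 1.36 in NeuN+ and 23.2% ± 2.70 in NeuN- nuclei. Cox8a held 96.2% and 95.7% of its family. The exception was Cox7b2, which held 48.2% ± 0.458 of the Cox7b pair in NeuN+ and 46.5% ± 5.31 in NeuN- nuclei, nearly as much as Cox7b.

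Complex V has 3 genes for its membrane-rotor subunit c, which encode the same mature peptide behind different import sequences. Atp5g2 was the main source in either sort, with 47.3% ± 1.74 of the family's level per kb in WT NeuN+ and 63.8% ± 2.01 in WT NeuN- nuclei. Atp5g3 held 36.4% ± 1.08 and 26.7% ± 1.62. Atp5g1 held 16.3% ± 2.36 in NeuN+ and 9.44% ± 0.658 in NeuN- nuclei. The libraries of the sorts did not overlap for any of the 3 shares.

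Neuronal against glial nuclei of WT were compared next, on CPM scaled over all 24 libraries. Of the 48 tested genes, 33 were higher in NeuN+ nuclei at an adjusted p under 0.05 (edgeR quasi-likelihood test, Benjamini-Hochberg over 33523 genes) and 5 were lower, against 36.1% and 36.3% of all genes tested. The 5 include Cox6b2, which passed the low-count filter only through the NeuN- libraries in which it is higher, and apart from it 4 were lower. The median log2 difference was 0.35 over the members and -0.01 over all genes. Complex III with cytochrome c was higher for 9 of 10 genes (median 0.46), complex V for 14 of 17 (median 0.43), complex IV for 8 of 17 (median 0.17) and complex II for 2 of 4 (median 0.09). In bulk nuclei, fewer cells of a type and less RNA per cell cannot be told apart.

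Cycs, the somatic cytochrome c, had the largest positive difference: 12.0, 13.3 and 12.3 CPM in WT NeuN+ against 5.85, 6.62 and 6.75 CPM in WT NeuN- libraries, a log2 difference of 0.97 (SE 0.10, adjusted p = 2.15e-08). Atp5g1 followed at 0.95 (SE 0.11), with 7.88, 10.5 and 10.1 CPM against 4.61, 5.50 and 4.68 CPM. The groups did not overlap for either gene. Atp5md, a small membrane subunit of ATP synthase, was higher by 0.85 (SE 0.08), Cox7b2 by 0.74 (SE 0.12) and Cox7b by 0.66 (SE 0.09), all with adjusted p-values under the threshold.

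The genes lower in NeuN+ nuclei included rare complex IV isoforms. Cox6b2 had 0.0487, 0.0810 and 0.0495 CPM in NeuN+ and 0.772, 0.815 and 0.662 CPM in NeuN- libraries, with 3, 5 and 3 counts in NeuN+. As it entered the fit only through its high sort, its log2 difference of -3.61 is given as a description. Cox4i2 differed by -1.93 (SE 0.24), at 0.211 to 0.292 CPM against 0.884 to 1.07 CPM, and Cox6a2 by -1.83 (SE 0.31), at 0.114 to 0.227 CPM against 0.525 to 0.712 CPM. Cox4i2 and Cox6a2 had an adjusted p under 0.05 and a log2 difference under -1, a class that held 21.6% of all genes. Cox7a1 was at -0.42 (SE 0.20, adjusted p = 0.0677) and did not pass. Sdhc, a membrane anchor of complex II, was lower, with a log2 difference of -0.31 (SE 0.05, adjusted p = 9.68e-06), and Atp5g2 was at -0.28 (SE 0.07, adjusted p = 0.00181).

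**Figure D1:**
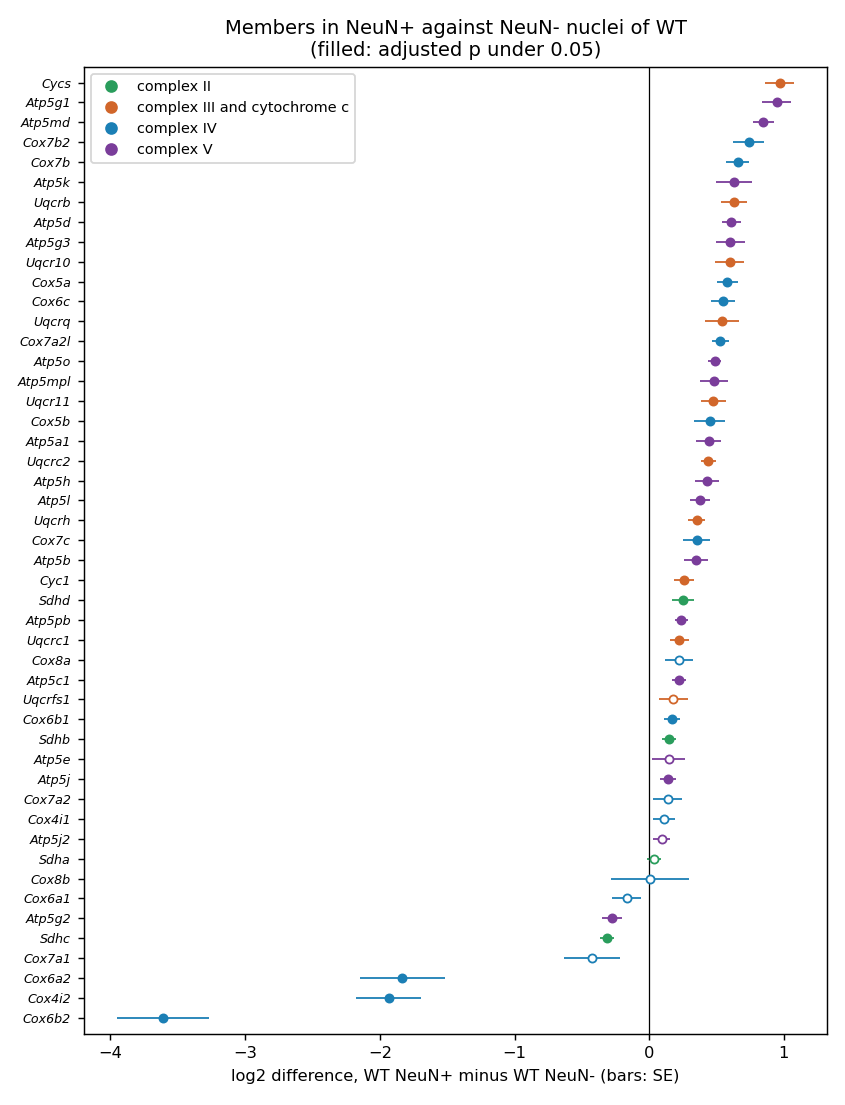
Each point is the log2 difference of 1 gene between WT NeuN+ and WT NeuN- nuclei, with its standard error as a bar, coloured by complex and filled where the adjusted p is under 0.05. Most genes lie to the right of 0, up to 0.97 for Cycs, and the complex IV isoforms Cox6b2, Cox4i2 and Cox6a2 lie far to the left, Cox6b2 having passed the low-count filter only through NeuN- libraries.

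The loss of a glycosylase was then compared with WT within each sort. In NeuN+ nuclei, most respiratory genes lay below WT in all 3 knockout groups, by a small amount each, and few or none passed a test over all genes. Log2 fold changes were below 0 for 41 (Mutyh-/-), 43 (Ogg1-/-) and 42 (DKO) of 47 genes, against 51.9%, 47.8% and 50.1% of all 30132 genes tested. The members' median was -0.15 (Mutyh-/-), -0.21 (Ogg1-/-) and -0.21 (DKO), while the medians over all genes were -0.0086, 0.0086 and -0.0005. In all 3 comparisons 40 of the 47 genes lay below WT, but the share of all genes that did so was not counted. The comparisons share the WT libraries, so they are not independent of each other and this count cannot be judged alone.

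At an adjusted p under 0.05, 3 members were lower in Ogg1-/- (0.873% of all genes), none in Mutyh-/- (0.222%) and none in DKO (0.412%) by edgeR's quasi-likelihood test, and no member was higher. DESeq2 called 10 lower in Ogg1-/- (3.37% of the genes to which it gave an adjusted p), 2 in Mutyh-/- (2.19%) and 12 in DKO (2.69%). At an unadjusted p under 0.05, 17 members were lower in Mutyh-/- (9.21% of all genes), 29 in Ogg1-/- (7.33%) and 31 in DKO (7.51%). The Mutyh-/- count was 7 without WT replicate 2 (5.5% of all genes in that fit) or Mutyh-/- replicate 3 (11.1%), and the DKO count was 17 without WT replicate 2 (5.13%) and 19 without DKO replicate 3 (5.39%). All 3 knockout libraries lay under all 3 WT libraries for 14 members of the Mutyh-/- comparison (10.8% of all genes), 30 of the Ogg1-/- comparison (10.2%) and 29 of the DKO comparison (9.49%). Leaving out any single library of the Ogg1-/- comparison left 0 members called, or 1 (Atp5g1) without WT replicate 1.

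The genes that fell in Ogg1-/- NeuN+ nuclei were Cox5b, Cox8a and Atp5a1. Cox5b, a nuclear regulatory subunit of complex IV (chr1:36691449-36693681, GRCm38, plus strand), had 11.2, 12.4 and 13.2 CPM in WT and 8.89, 8.35 and 7.12 CPM in Ogg1-/- libraries. Its groups did not overlap, and it fell by a log2 fold change of -0.59 (SE 0.13, adjusted p = 0.0401). It was the only member that also passed the study's DEG threshold of an absolute log2 fold change above 0.5, which 0.392% of all genes passed in the lower direction. Cox5b was at 10.8, 10.8 and 7.33 CPM in Mutyh-/- (log2 fold change -0.35, adjusted p = 0.170) and at 8.84, 9.12 and 7.88 CPM in DKO (-0.51, adjusted p = 0.101).

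Cox8a, a small membrane subunit of complex IV (chr19:7215153-7217616, minus strand), had 10.4, 12.1 and 11.8 CPM in WT and 8.71, 8.68 and 7.11 CPM in Ogg1-/-, a log2 fold change of -0.48 (SE 0.11, adjusted p = 0.0438). In DKO it was at 7.70, 9.11 and 7.85 CPM (-0.47, adjusted p = 0.0753) and in Mutyh-/- at 9.72, 10.04 and 7.86 CPM (-0.31, adjusted p = 0.147). Atp5a1 had 62.9, 70.8 and 65.9 CPM in WT and 51.6, 47.0 and 45.3 CPM in Ogg1-/-, a log2 fold change of -0.47 (SE 0.11, adjusted p = 0.0451). In DKO its libraries held 49.0, 50.8 and 41.0 CPM (-0.50, adjusted p = 0.0507). An exon of Atp5a1 overlaps one of Haus1 on the other strand, and the strand setting of the counting is not given in the sources used here, so reads of the pair could be mixed. For Cox8a and Atp5a1 too, every knockout library lay below every WT library in all 3 genotypes. All 3 calls are marginal, with adjusted p-values of 0.055 to 0.234 when a single library was left out, and Atp5a1 was at 0.0557 with a gene-length offset. The folds stayed near their size with a library left out, at -0.66 to -0.51 (Cox5b), -0.55 to -0.39 (Cox8a) and -0.53 to -0.43 (Atp5a1) on the log2 scale.

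**Figure D2:**
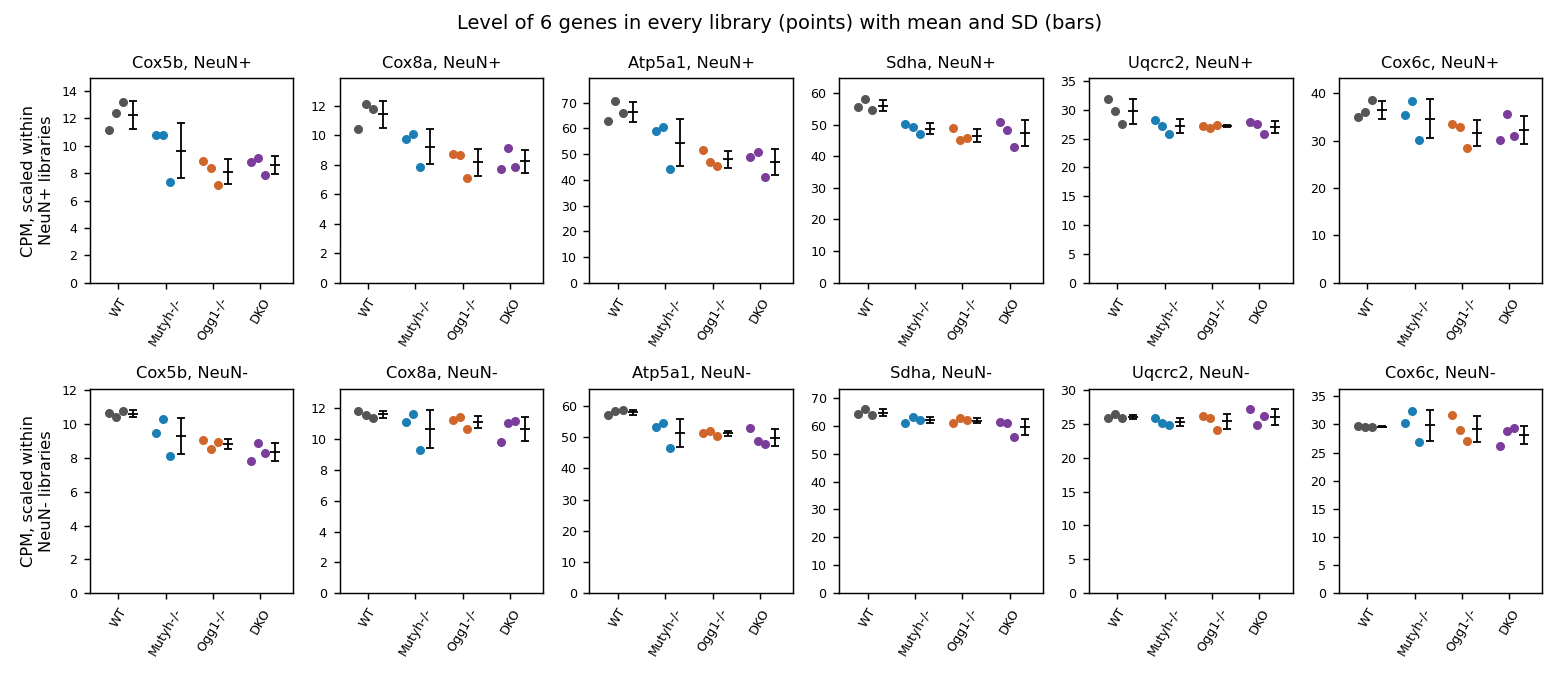
Points are single libraries and bars the mean and SD of 3, in CPM scaled within a sort, for the 3 called genes and for the highest gene of complexes II, III and IV by CPM. In the upper row (NeuN+), the knockout points of Cox5b, Cox8a, Atp5a1 and Sdha lie under the WT points, while in the lower row (NeuN-) they lie closer to WT.

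Just outside the threshold in Ogg1-/- NeuN+ nuclei were Sdha (adjusted p = 0.0510), Atp5b (0.0574), Atp5g3 (0.0690), Cycs (0.0733) and Cox4i1 (0.0754), which are named after their values were seen. Sdha, the flavoprotein that oxidises succinate, was also the highest member of complex II by CPM: 55.5, 58.0 and 54.6 in WT, 50.1, 49.2 and 46.9 in Mutyh-/-, 48.8, 44.96 and 45.6 in Ogg1-/- and 50.8, 48.2 and 42.7 in DKO. All 9 knockout libraries lay under the WT libraries, at log2 fold changes of -0.20, -0.27 and -0.25. Sdhd, a membrane anchor and the lowest member of complex II by CPM, was at 6.73, 6.44 and 5.71 CPM in WT and at 4.70, 4.90 and 5.17 CPM in DKO (-0.35, adjusted p = 0.0954). The other anchor, Sdhc, was within 0.06 of WT in each genotype on the log2 scale (0.01, -0.04 and -0.06).

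Complex III with cytochrome c was the most uniform: all 10 genes had log2 fold changes below 0 in every genotype, with medians of -0.24 (Mutyh-/-), -0.31 (Ogg1-/-) and -0.28 (DKO). Unadjusted p-values were under 0.05 for 7, 9 and 9 of the 10 (9.21%, 7.33% and 7.51% of all genes), and none passed adjustment. Uqcr10, a small subunit and the lowest of the complex by CPM, held 3.83, 4.31 and 4.34 CPM in WT against 3.24, 3.44 and 2.74 in Ogg1-/- and 3.10, 3.08 and 2.94 in DKO (log2 fold changes -0.41 and -0.45). Uqcr11, whose promoter is shown above, was at 5.41, 5.92 and 6.00 CPM in WT and between 4.12 and 5.09 CPM in the 9 knockout libraries. Uqcrc2, a core subunit and the highest of the complex by CPM, was at 31.9, 29.9 and 27.5 CPM in WT and 27.2, 26.9 and 27.4 CPM in Ogg1-/- (-0.13, adjusted p = 0.393). Exons of Uqcrc2 overlap Pdzd9 on the other strand. Uqcrq was at -0.35, -0.39 and -0.38 in the 3 genotypes and the iron-sulphur protein Uqcrfs1 at -0.25, -0.36 and -0.29, both named after their values were seen. Uqcrb and Uqcrh differed little from WT in Mutyh-/- (-0.06 and -0.01) and more in Ogg1-/- (-0.28 and -0.20) and DKO (-0.27 and -0.18), without any passing adjustment. The haem subunit Cyc1, which hands electrons to cytochrome c, was at -0.23, -0.23 and -0.22, and the core subunit Uqcrc1 at -0.06, -0.10 and -0.09. Cycs, which also triggers apoptosis when released from mitochondria, had 11.02, 12.3 and 11.4 CPM in WT, 9.13, 8.65 and 7.47 in Ogg1-/- (-0.46, adjusted p = 0.0733) and 8.56, 8.90 and 7.20 in DKO (-0.49, adjusted p = 0.0839).

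Over the 16 tested genes of complex IV the medians were -0.08 (Mutyh-/-), -0.18 (Ogg1-/-) and -0.19 (DKO). The ubiquitous isoform Cox4i1 was at 14.9, 17.3 and 16.5 CPM in WT and between 10.7 and 13.9 CPM in the 9 knockout libraries, with adjusted p-values of 0.0834, 0.0754 and 0.0775. Its exons overlap Emc8 on the other strand. Cox6a1 was at -0.19, -0.36 and -0.34, whereas its rare partner Cox6a2, the lowest tested member at 4 to 15 counts per library, was at -0.67, -0.52 and -1.06 with standard errors of 0.42 to 0.45. Cox6c, the highest member of the complex by CPM not divided by length, held 35.0, 36.0 and 38.6 CPM in WT and 33.6, 33.0 and 28.5 CPM in Ogg1-/-. Its exons overlap Vps13b on the other strand.

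Among the other isoforms, Cox7b had 12.6, 12.7 and 12.6 CPM in WT and 11.3, 10.7 and 9.76 CPM in Ogg1-/- NeuN+ libraries, with no overlap (-0.26, SE 0.09, adjusted p = 0.201). Cox6b1 had 8.62, 9.06 and 8.61 CPM in WT and 8.05, 7.42 and 8.12 CPM in Ogg1-/- (-0.16, adjusted p = 0.364). Cox7a2l, which is known to join complexes III and IV into supercomplexes, was at -0.01, -0.05 and -0.03 with standard errors of 0.07. Cox7a2 was at 5.30, 4.21 and 5.10 CPM in WT and 4.45, 4.37 and 4.46 CPM in Ogg1-/-, where the groups overlapped. The rare Cox4i2, Cox7a1 and Cox8b had values of 0.11, -0.08 and 0.18 in Mutyh-/- and -0.15, 0.02 and -0.08 in Ogg1-/-, all smaller than their standard errors of 0.23 to 0.35. Of the single-gene subunits, Cox5a, the partner of Cox5b, was at -0.16, -0.12 and -0.20 and Cox7c at -0.09, -0.21 and -0.23, and neither passed adjustment.

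Cox7b2 had the most positive log2 fold change of the members in Ogg1-/- NeuN+ nuclei, without passing the test. It held 5.14, 5.24 and 5.33 CPM in WT, 5.78, 5.64 and 6.18 in Mutyh-/-, 6.49, 6.49 and 6.06 in Ogg1-/- and 5.81, 4.81 and 5.12 in DKO NeuN+ libraries. All Ogg1-/- and Mutyh-/- libraries lay above WT, with log2 fold changes of 0.28 (SE 0.08, adjusted p = 0.136) and 0.17 (adjusted p = 0.302), and DKO was at 0.00, with its libraries on both sides of WT. Its share of the Cox7b pair was 48.2% ± 0.458 in WT, 52.5% ± 4.41 in Mutyh-/-, 57.3% ± 1.00 in Ogg1-/- and 52.1% ± 3.20 in DKO NeuN+ nuclei (SD, n = 3). The Mutyh-/- libraries ranged from 49.4% to 57.5%.

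Over the 17 genes of complex V the medians were -0.15, -0.18 and -0.18, and 15 lay below WT in each genotype. Atp5b, the catalytic beta subunit, held 47.5, 55.1 and 55.7 CPM in WT, 42.3, 40.2 and 37.0 in Ogg1-/- and 37.9, 43.3 and 36.2 in DKO (log2 fold changes -0.41 and -0.43). Its gamma partner Atp5c1 did not share this pattern, at 57.3, 60.1 and 58.9 CPM in WT and 58.0, 62.3 and 56.5 CPM in Ogg1-/-. Of the subunit c genes, Atp5g3 held 8.79, 8.82 and 8.35 CPM in WT and 6.04, 6.49 and 6.78 CPM in Ogg1-/- (-0.43, adjusted p = 0.0690). Atp5g1 held 7.22, 9.67 and 9.38 against 7.18, 7.17 and 6.90 CPM (-0.31, adjusted p = 0.154), with WT replicate 1 close to the knockouts, and Atp5g2, the main source, 8.87, 8.43 and 8.60 against 7.87, 8.49 and 7.22 CPM (-0.14, adjusted p = 0.494). Atp5k, a subunit of the membrane part that joins ATP synthase into dimers, had the most negative value of the complex in Ogg1-/- and DKO, at -0.49 and -0.52 (adjusted p = 0.151 and 0.147). Atp5md and Atp5d were nearer to WT in Ogg1-/-, at -0.04 and -0.12. Exons of Atp5d, Atp5j and Atp5pb overlap Cbarp, Gabpa and Wdr77 on the other strand. Atp5e, the epsilon subunit and the lowest of the complex by CPM, held 2.08, 2.43 and 2.20 CPM in WT and 1.89, 1.69 and 1.29 CPM in Mutyh-/- (-0.47, adjusted p = 0.108). Atp5o, the uncertain row, held 302, 304 and 308 CPM in WT and 309, 318 and 319 CPM in Ogg1-/- (0.05, adjusted p = 0.716). The summed level of all 50 members was 1028 ± 27.5 CPM in WT and 932 ± 18.1 CPM in Ogg1-/-, and without it 723 ± 26.0 and 617 ± 21.9 CPM (SD, n = 3).

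**Figure D3:**
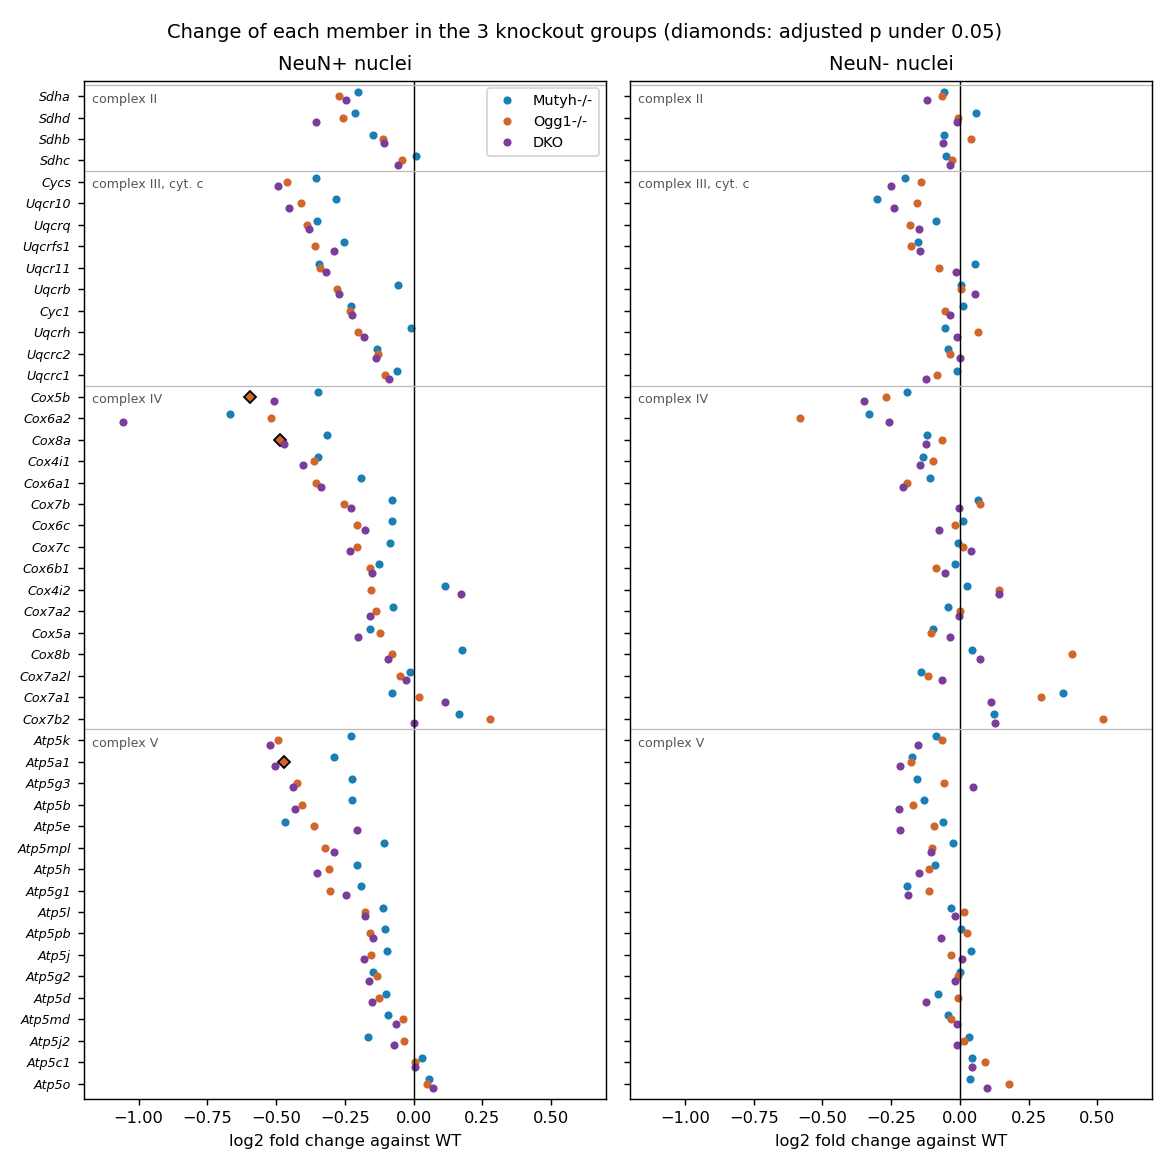
Each row is 1 of 47 genes, ordered within complexes, and each point its log2 fold change in a knockout group against WT, in NeuN+ (left) and NeuN- nuclei (right), with diamonds for an adjusted p under 0.05. On the left 41 to 43 genes lie under 0 and Cox5b, Cox8a and Atp5a1 are called in Ogg1-/-, and on the right the points scatter closer to 0.

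The shift was seen in all Ogg1-/- and DKO libraries. The median over the members of the log2 difference from the WT mean was -0.07, 0.04 and 0.02 in the WT NeuN+ libraries, -0.17, -0.24 and -0.26 in Ogg1-/- and -0.26, -0.15 and -0.27 in DKO. In Mutyh-/- it was -0.10 and -0.07 in replicates 1 and 2 and -0.28 in replicate 3, and without that replicate the Mutyh-/- median was -0.12 in place of -0.15. Depth and several marker lists differed between the genotypes as well. NeuN+ totals were 64759050 to 67220387 counts among WT libraries, 66147375 to 96192142 among Ogg1-/- and 71291148 to 81093906 among DKO libraries. The Mutyh-/- totals were 62539911, 56563586 and 78760380 counts, the last being replicate 3. The 4 interneuron markers summed to 30.4 to 37.4 CPM in WT, and to 19.3 to 27.2 (Mutyh-/-), 27.0 to 32.3 (Ogg1-/-) and 25.1 to 27.7 CPM (DKO) in the knockouts, and 1 of them, Lhx6, fell in Mutyh-/- (-0.49, adjusted p = 0.0162). Astrocyte markers were at 273 to 328 CPM in WT and 248 to 311 CPM in the knockouts, choroid plexus markers at 13.0 to 21.0 and 10.02 to 14.0 CPM, and oligodendrocyte precursor markers at 2.56 to 3.77 and 2.06 to 3.39 CPM. Neuron markers were at 4620 to 4890 CPM in WT and 4690 to 5310 CPM in the knockouts, and 7 nuclear-retained RNAs at 21000 to 22400 and 21000 to 22600 CPM. Every Mutyh-/- library lay above WT for the neuron markers (4910 to 5310 CPM). Every Ogg1-/- library lay below WT for the choroid plexus markers (10.02 to 12.8 CPM). The other genotypes overlapped WT for the neuron and choroid plexus markers. For the interneuron markers every Mutyh-/- and every DKO library lay below WT, while Ogg1-/- overlapped it. The part of depth and of these markers in the result was not tested.

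**Figure D4:**
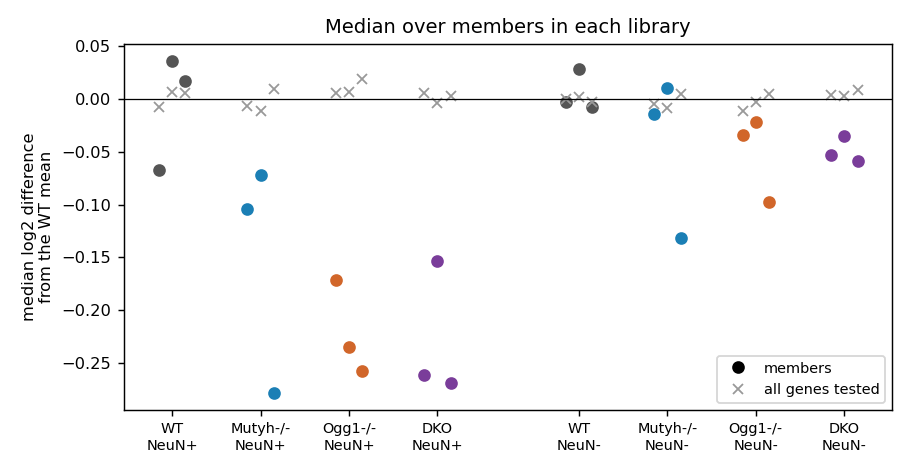
Circles give, for each library, the median over members of the log2 difference from the mean of the WT libraries of the same sort, and crosses the same over all genes tested. In NeuN+ nuclei the Ogg1-/- and DKO circles lie between -0.15 and -0.27, and the crosses stay near 0 in all 24 libraries.

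In NeuN- nuclei the differences were smaller. Log2 fold changes were below 0 for 32 (Mutyh-/-), 32 (Ogg1-/-) and 36 (DKO) of 48 genes, against 51.2%, 49.8% and 48.5% of all 31863 genes, with medians of -0.04, -0.05 and -0.05. Leaving out 1 library gave medians of -0.07 to -0.0035 (Mutyh-/-), -0.06 to -0.02 (Ogg1-/-) and -0.07 to -0.05 (DKO), nearest to 0 without Mutyh-/- replicate 3 and Ogg1-/- replicate 3. No member passed edgeR's adjusted threshold in any of the 3 comparisons, in which 0.132%, 0.16% and 0.11% of all genes were called lower. DESeq2 called none lower in Mutyh-/- (1.24% of the genes with an adjusted p) or Ogg1-/- (1.21%), Cox7b2 as higher in Ogg1-/- (1.62%) and Cox5b as lower in DKO (1.38%). At an unadjusted p under 0.05, 6, 4 and 8 members were lower (6.9%, 6.08% and 6.31% of all genes), and 2 to 8, 1 to 4 and 5 to 10 when a single library was left out. The knockout libraries lay under all WT libraries for 6, 11 and 14 members (10.2%, 10.7% and 9.15% of all genes).

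Cox5b had the most negative log2 fold change of the members in DKO: 10.7, 10.4 and 10.8 CPM in WT NeuN- and 7.84, 8.90 and 8.30 CPM in DKO NeuN- libraries, with no overlap (-0.35, SE 0.08, adjusted p = 0.154). Ogg1-/- held 9.03, 8.501 and 8.92 CPM (-0.27, adjusted p = 0.231). Atp5a1 was at -0.17, -0.18 and -0.22 in the 3 genotypes, and Cox8a at -0.12, -0.06 and -0.12. Cox7b2 rose to 4.81, 5.60 and 5.63 CPM in Ogg1-/- from 2.81, 4.40 and 4.00 CPM in WT by DESeq2 only, and edgeR gave a log2 fold change of 0.52 (SE 0.14, adjusted p = 0.181). Marker lists moved in the NeuN- libraries too. Oligodendrocyte markers summed to 6490 to 7240 CPM in WT, against 5980 to 7370 (Mutyh-/-), 5510 to 6130 (Ogg1-/-) and 4910 to 6070 CPM (DKO), where every Ogg1-/- and DKO library lay under WT. Astrocyte markers summed to 3040 to 3620 CPM in WT, against 3100 to 4060, 3550 to 4470 and 3790 to 3950 CPM in the same order, and neuron markers to 411 to 495, 394 to 450, 348 to 423 and 339 to 418 CPM. Choroid plexus markers were at 36.1 to 65.5 CPM in WT, against 19.2 to 23.9, 9.92 to 104 and 7.75 to 233 CPM. The interneuron markers summed to 4.78 to 5.09 CPM in WT, against 3.93 to 4.65, 2.97 to 4.83 and 3.15 to 3.73 CPM, and the nuclear-retained RNAs to 19000 to 20200 CPM in WT, against 19300 to 21200, 20500 to 21500 and 19900 to 20700 CPM. Every Ogg1-/- library lay above WT for the latter. The part of these lists in the NeuN- values was not tested.

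The difference between the sorts was tested directly as an interaction over all 24 libraries. No member passed for Mutyh-/-, Ogg1-/- or DKO with edgeR, where 0.0209%, 0.0537% and 0.0567% of all genes were called. DESeq2 called no member either. Of the genes with an adjusted p, it called 0.3%, 0.13% and 0.259% lower and 0.252%, 0.208% and 1.08% higher. The effect was more negative in NeuN+ than in NeuN- nuclei for 39, 45 and 43 of 48 members (52.7%, 48.4% and 50% of all genes), with medians of -0.10, -0.19 and -0.15. Unadjusted p-values were under 0.05 in that direction for 5, 10 and 8 members (4.64%, 3.04% and 4.76% of all genes), and for 2 to 8, 5 to 13 and 2 to 10 when a single library was left out. The Mutyh-/- median was -0.03 without Mutyh-/- NeuN+ replicate 3 and -0.16 without Mutyh-/- NeuN+ replicate 2 or Mutyh-/- NeuN- replicate 3. Cox8a had an interaction of -0.41 in Ogg1-/- (SE 0.14, adjusted p = 0.550). Removing the trend over transcript length brought the DKO median to -0.08. So a stronger effect in neuronal nuclei was not shown for any single gene.

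The knockouts were also compared with each other. No member was called by edgeR between Ogg1-/- and Mutyh-/- (0.654% of all genes in NeuN+, 0.788% in NeuN-), between DKO and Mutyh-/- (0.163% and 0.148%) or between DKO and Ogg1-/- (0.252% and 0.157%). DESeq2 called no member in these comparisons either, but its share of all genes is not given here. In NeuN+ nuclei the medians were -0.06, -0.07 and 0.0022, and 1 member had an unadjusted p under 0.05 in each, against 12.7%, 6.86% and 4.26% of all genes. In NeuN- nuclei 2, 0 and 1 members had such a p, against 11.5%, 11% and 4.34%. Without Mutyh-/- NeuN+ replicate 3, whose median stood lowest in its group, 5 members were called lower in Ogg1-/- than in Mutyh-/- (1.81% of all genes in that fit). At an unadjusted p under 0.05, 15 members in Ogg1-/- (10.1%) and 18 in DKO (6.86%) were lower than in Mutyh-/- in the same fit.

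If the single knockouts acted additively on the log2 scale, the DKO would lie as far under WT as the single knockouts do in sum. In NeuN+ nuclei 42 of 47 members lay above that sum (50.5% of all genes), or 35 without Mutyh-/- replicate 3, with a median departure of 0.13, and in NeuN- nuclei the median was 0.01. No member was called by edgeR (0.159% and 0.122% of all genes) or by DESeq2, whose share of all genes is not given here. Unadjusted p-values under 0.05 were found for 6 members above (3.67% of all genes) and 1 below the sum (4.28%) in NeuN+ nuclei, with Cox5b among the 6 at 0.44 (SE 0.18, adjusted p = 0.609). Cox7b2 was the one below, at -0.44 (SE 0.12, adjusted p = 0.383). When a single library was left out, 2 to 12 members were above the sum at that p. The shares of all genes in those fits are not given here, so these counts and the 35 above cannot be set against them. In NeuN- nuclei 2 members were below and 1 above the sum at that p, against 8% of all genes in either direction. A high WT value raises this departure, since WT enters it with a positive sign.

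A property that the choice by name did not use is the length of the gene on the chromosome. The members span 0.231 to 105 kb, with a median of 6.61 kb. The 47 tested members were split at their own median span. The 23 under it had median log2 fold changes in NeuN+ nuclei of -0.23 (Mutyh-/-), -0.36 (Ogg1-/-) and -0.32 (DKO), and the other 24 had -0.11, -0.14 and -0.15. Spearman's correlation between span and log2 fold change over 47 members was 0.46, 0.57 and 0.57, as a description of genes that share the same libraries. Over 16630 protein-coding genes it was 0.07, 0.17 and 0.10, and those as short as the short members had medians of -0.05, -0.08 and -0.06. Over all 29260 tested genes with a span, non-coding ones included, the correlation was -0.04, -0.0034 and -0.06 and the medians of the short genes were -0.0010, 0.01 and 0.01, so the sign differed from that over protein-coding genes except for the Mutyh-/- median. Cox7b2, the longest member, was the one furthest above WT in Ogg1-/-. Removing the trend over gene span in each library left medians of -0.13, -0.19 and -0.19. That trend was fitted over all genes with a span, non-coding ones included. These medians therefore cannot show what would remain after removing the trend over protein-coding genes, which was not tested. Members with at least 1 promoter motif had medians of -0.19, -0.26 and -0.21, and those with an entry and none had -0.09, -0.14 and -0.16.

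**Figure D5:**
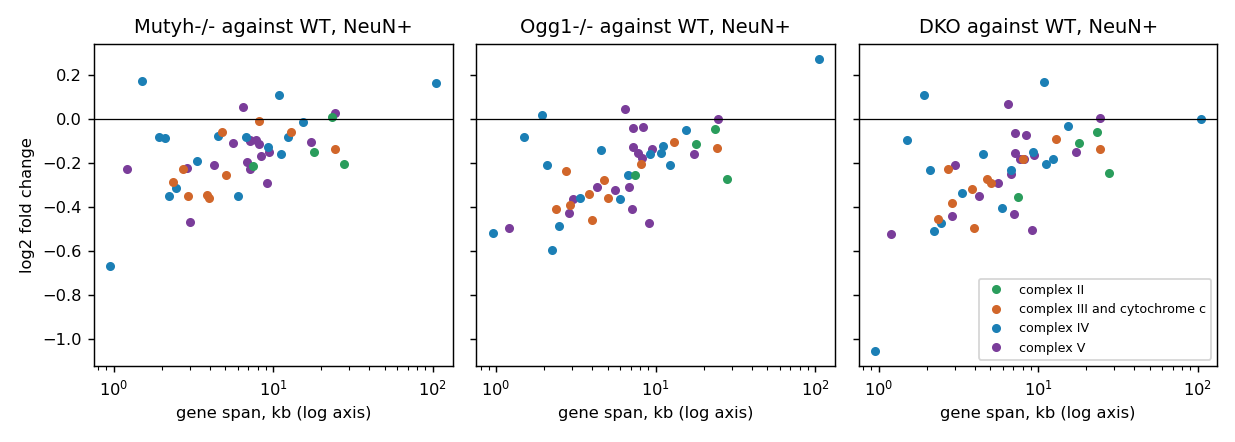
Each point is 1 of 47 genes, with its span on the chromosome in kb on a log axis and its log2 fold change against WT in NeuN+ nuclei, coloured by complex. Short genes lie lower than long ones in all 3 panels, and the longest, Cox7b2, is at 0.17, 0.28 and 0.00.

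Other genes of the pathway were taken from lists made by name. The 38 tested genes with Nduf symbols, the naming series of complex I, had medians of -0.12, -0.13 and -0.16 in Mutyh-/-, Ogg1-/- and DKO NeuN+ nuclei. These were close to the members, with 1, 1 and 2 called lower (0.222%, 0.873% and 0.412% of all genes). The list goes by symbol only, so not every gene in it need be a subunit of complex I. The called genes were Ndufs5 in Mutyh-/- (-0.82, adjusted p = 0.000307) and DKO (-0.89, adjusted p = 0.000198), and Ndufb11 in Ogg1-/- (-0.60, adjusted p = 0.0280) and DKO (-0.61, adjusted p = 0.0412). A list of 7 genes for the transport of ATP, ADP and phosphate had medians of -0.14, -0.17 and -0.22. It joins Slc25 carriers of the inner membrane with Vdac channels of the outer membrane. Slc25a4, the exchanger of ATP for ADP, fell in Ogg1-/- (-0.52, SE 0.10, adjusted p = 0.0236) and DKO (-0.51, SE 0.10, adjusted p = 0.0399).

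Genes that build the complexes had medians near 0. The 22 assembly factors of complex IV had medians of -0.02, -0.03 and -0.03, the 7 of complex III and cytochrome c -0.07, -0.03 and -0.02, the 4 of complex II 0.03, 0.06 and 0.04 and the 4 of complex V -0.0023, 0.08 and -0.0051, and none was called by edgeR, where 0.222%, 0.873% and 0.412% of all genes were called lower. At an unadjusted p under 0.05, 3 of them were lower in each genotype, against 9.21%, 7.33% and 7.51% of all genes. The 14 regulators of respiratory gene transcription had medians of 0.04, 0.04 and 0.06, and only Gabpb1, a subunit of GABP, was called, as higher in Mutyh-/- (0.32, SE 0.07, adjusted p = 0.0464), where 0.418% of all genes were called higher. The 78 mitochondrial ribosomal proteins had medians of -0.05, -0.09 and -0.08, with Mrps2 lower in Ogg1-/- (-0.47, adjusted p = 0.0296).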

How the data were processed

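Nuclear RNA libraries of fixed, NeuN-sorted hippocampal nuclei (3 per genotype and sort) were sequenced as stranded, paired-end reads. The authors aligned them with HISAT2 2.1.0 to GRCm38 (mm10) and deposited raw counts per gene from featureCounts over Ensembl annotation. The settings for strand, overlapping genes and reads with several matches are not given in the sources used here. Depth was 56563586 to 96192142 counts per library.

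The main test was edgeR 4.0.16's quasi-likelihood test (R 4.3.3, limma 3.58.1) on the deposited counts with TMM scaling, filterByExpr and Benjamini-Hochberg adjustment over all genes tested, with the 4 genotypes of a sort in 1 fit (30132 genes in NeuN+, 31863 in NeuN-). All 24 libraries entered 1 fit (33523 genes) for sorts and interactions. CPM are scaled within a sort, except in comparisons of sorts and in levels per kb, which use all 24. Lengths and positions are from GENCODE vM21 on GRCm38, which is not the authors' release. Fits were tested on simulated counts. Alternatives were other scaling and filters, DESeq2 1.42.0, edgeR's likelihood ratio test, fits of 2 groups, a replicate block, length offsets and leaving out each library. A gene-span offset and sums without Atp5o were added after seeing the data. Genes were named where called, as highest or lowest of a complex, as isoforms, or as the 5 largest differences between sorts in each direction, and others are named as chosen later. The members and lists were chosen with earlier results of these data known.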

Additional observations from a re-analysis of the deposited data

How the results depend on the processing

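The medians over the members in NeuN+ nuclei stayed below 0 under every alternative run, between -0.19 and -0.12 (Mutyh-/-), -0.24 and -0.19 (Ogg1-/-) and -0.24 and -0.18 (DKO), whereas the counts of called members depended on the test. All members called in NeuN+ nuclei under these settings were lower, and each share in parentheses is that of all genes called lower in the same fit, for DESeq2 of those with an adjusted p. In Mutyh-/- 1 member was called without a low-count filter (1.1%), 2 with DESeq2 (2.19%) and 3 with the likelihood ratio test (1.59%). In Ogg1-/- the count was 8 (1.17%), 10 (3.37%) and 9 (1.99%) with these, 10 in a fit of only the 2 groups (2.43%), and 0 to 1 when a single library was left out (0.0978% to 0.525%). In DKO it was 8 (0.841%), 12 (2.69%) and 10 (1.54%) with these, 7 in a fit of the 2 groups (0.72%), and 1 with at least 10 counts in every library (0.508%) or with the gene-span offset (0.378%). In NeuN- nuclei DESeq2 called 1 member in Ogg1-/- and 1 in DKO. Ogg1-/- against Mutyh-/- in NeuN+ nuclei gave 0 to 5 when a single library was left out. The gene-length offset alone called 2 members in Ogg1-/- (0.743%) and 0 in DKO NeuN+ nuclei (0.246%). A replicate block called 7 members in Ogg1-/- (1.44%) and 6 in DKO NeuN+ nuclei (1.01%), and the block together with the gene-length offset 7 (1.31%) and 5 (0.823%). Within a sort, however, the replicate numbers did not pair the samples: same-numbered libraries deviated from their group means with a mean correlation of -0.005 in NeuN+ and 0.046 in NeuN- nuclei. Between the sorts, for equal genotype and number, it was 0.111 (0.0107 to 0.292 over 12 pairs), against -0.0554 for other numbers, and it was 0.0107 to 0.0569 in WT and over 0.1 in all 3 pairs only in DKO. That pairing as a block called 34 members higher and 6 lower in WT NeuN+ nuclei (36.5% and 37.1% of all genes) and none in the interactions, where 7, 15 and 14 members were lower at an unadjusted p under 0.05 (5.73%, 4.19% and 5.94%). The median level per kb was 10.4 (NeuN+) and 7.49 (NeuN-) CPM with the longest transcript as length. Cox8b, at 0.01 between the WT sorts, turned to -0.0120 and -0.0096 with DESeq2's size factors and test, -0.0057 with the block, -0.11 with the gene-length and the gene-span offset, and ranged from -0.27 to 0.25 when a single library was left out. The summed level in Ogg1-/- NeuN- nuclei turned from 0.02 to -0.0504 on the log2 scale without Atp5o. The cause of these changes was not tested. Leaving mitochondrial transcripts out before scaling was not run. Genes under about 10 counts per library, such as Cox6b2 and Cox6a2 in NeuN+ nuclei, cannot show small differences at this depth.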
